A study of Homo sapiens with 6 samples.

Results

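The 10 genes described here encode transcription factors of the AP-1 family and its close dimer partners: FOS, FOSB, FOSL1, FOSL2, JUN, JUNB, JUND, ATF3, MAFF and BATF3. They were taken by symbol from the array's annotation, and each was represented by exactly 1 transcript cluster, the array's unit for a transcribed locus, among 22465 named genes. The study compared SND1 knockdown with control cells of the line labelled HepG2, a liver cancer line derived from a hepatoblastoma. The knockdown cells (shSND1) stably carried 1 hairpin, shSND1-#1, in the pLKO lentiviral vector, and the control cells (sh-Vector) stably carried pLKO without it. SND1 is an RNA-binding nuclease and transcriptional coactivator. Both groups, cultured in DMEM with serum, received 5-fluorouracil, a thymidylate synthase inhibitor, at 6 µg/mL for 48 h. Each group comprised 3 arrays, and cells without the drug were not analysed here. Since there was 1 hairpin and an empty control vector, the loss of SND1 cannot be told apart from other effects of this hairpin or of carrying any hairpin.

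AP-1 is a dimer of basic leucine zipper proteins. FOS proteins bind DNA mainly in a pair with a JUN protein, whereas JUN proteins also pair with each other. The dimers bind the TPA response element (TRE), and dimers with ATF proteins favour the closely related cyclic AMP response element (CRE). Several of the genes are immediate early genes, transcribed within minutes of growth factor or stress signals that act through MAP kinases. Interstitial collagenase, encoded by MMP1, is the classical AP-1 target, and its TRE was among the first to be described.

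SND1, on a cluster shared with its intronic transcript SND1-IT1, gave log2 signals of 5.82, 5.69 and 5.88 in shSND1 cells, against 7.44, 7.25 and 7.16 in sh-Vector cells, which left 35.6% of the control signal. Array medians over the named genes lay between 4.81 and 4.89 in shSND1 cells and between 4.78 and 4.87 in sh-Vector cells. Arrays of a group differed among themselves: on the first principal component of the brighter genes, the shSND1 arrays lay between 2.5 and 12 and the sh-Vector arrays between -15.7 and 2.5. This component held 54.0% of the variance. Over the named genes, the SD of pairwise array differences was 0.147 to 0.193 within groups and 0.140 to 0.240 between groups, so these ranges overlapped. Of 13 measured hepatocyte markers none passed. ALB, AFP, FGA, FGB and FGG gave signals below the 10th percentile of named genes, while APOA2 lay at the 95.9th and SERPINA1 at the 65.3th. Albumin and alpha-fetoprotein, the defining secreted products of hepatoblastoma cells, thus gave signals among the lowest on these arrays. The 8 simple epithelial markers had a median change of -0.13. CDH1 alone fell (-0.95, SE 0.07, limma adjusted p = 0.00954), and none rose. The array medians of the list, 8.08 to 8.20 in shSND1 cells and 8.48 to 8.73 in sh-Vector cells, overstate the difference. CDH1 lay above EPCAM in every sh-Vector array and below it in every shSND1 array, which moved the middle of the list. CDH1 did not pass with the replicate number as a block or with a floor at the 30th percentile of signals, nor without shSND1 replicate 1 or 3 or sh-Vector replicate 2 (limma adjusted p = 0.0663 to 0.132). The highest of the 8 markers, KRT8 and KRT18, had changes of -0.19 (SE 0.05) and -0.23 (SE 0.06). KRT19 had -0.33, SOX9 -0.07, CLDN4 -0.03, EPCAM -0.0033 and KRT7 0.12. None of 6 fibroblast, 5 leukocyte and 5 endothelial markers passed. In each of these lists, the 2 with the highest signal were COL1A1 (0.07) and PDGFRB (-0.03), CD68 (-0.55) and CD3E (0.07), and VWF (0.10) and CDH5 (0.08). The part of these marker changes in the AP-1 values was not tested, and a change in cell makeup cannot be told apart from a change per cell in bulk RNA.

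No AP-1 gene passed the test in shSND1 cells. Of the 10 genes, 0 rose and 0 fell at a limma adjusted p under 0.05, a level that 0.169% of all named genes reached (38 of 22465). These were 31 falls (0.138%) and 7 rises (0.0312%), or 14 falls and 1 rise with arrays centred on their medians. At an unadjusted limma p under 0.05, JUNB and FOSL2 were lower and none was higher. Of all named genes, 12.2% reached that level (7.34% lower and 4.85% higher), and of those above the median signal, as both genes were, 11.8% were lower. JUNB showed the largest difference of the 10, a signal 1.27-fold lower in shSND1 cells. The collagenase gene MMP1 fell much further in the same arrays. It had log2 signals of 7.05, 7.10 and 7.05 in shSND1 cells, against 8.47, 8.39 and 8.23 in sh-Vector cells, and its change was -1.29 (SE 0.07, limma adjusted p = 0.00273).

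JUNB encodes a JUN protein that is a weaker activator than JUN and opposes it in some settings. Its log2 signals were 6.76, 6.74 and 6.77 in shSND1 cells, against 7.18, 7.06 and 7.04 in sh-Vector cells. The groups did not overlap, and the 3 shSND1 arrays lay within a narrow range (SD 0.02, against 0.08 in sh-Vector cells). The change was -0.34 (SE 0.06, 95% interval -0.47 to -0.21, limma adjusted p = 0.0831), with an exact two-sided permutation p of 0.1, the smallest that 3 arrays against 3 allow. FOS, FOSL1 and FOSL2, whose groups did not overlap either, had the same permutation p. JUNB passed under 3 of 15 alternatives: without the dimmest 40% of features (limma adjusted p = 0.026), with a variance trend and robust fitting (0.045) and with array weights (0.00559). Over all alternatives its adjusted p ran up to 0.316, and its change stayed between -0.37 and -0.30.

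JUND, the broadly expressed and least inducible JUN gene, had log2 signals of 6.88, 6.92 and 6.80 in shSND1 cells, against 7.18, 6.88 and 6.92 in sh-Vector cells. The groups overlapped, and sh-Vector replicate 1 alone stood high. The change was -0.13 (SE 0.09, 95% interval -0.33 to 0.07, limma adjusted p = 0.599), and -0.03 without that array. JUN, the founding member of the JUN genes and the main substrate of the JNK kinases, had 5.47, 5.50 and 5.57 in shSND1 cells, against 5.68, 5.56 and 5.55 in sh-Vector cells. Here too the groups overlapped, and sh-Vector replicate 1 was the highest array. The change was -0.09 (SE 0.06, 95% interval -0.22 to 0.05, limma adjusted p = 0.617), and -0.05 without sh-Vector replicate 1.

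FOSL2 encodes FRA-2, a FOS protein without the strong activation domain of FOS. Its log2 signals were 7.09, 7.11 and 7.08 in shSND1 cells, against 7.44, 7.31 and 7.18 in sh-Vector cells. The shSND1 arrays were nearly level and below all sh-Vector arrays, which were themselves spread over a wider range. The change was -0.21 (SE 0.07, 95% interval -0.38 to -0.05, limma adjusted p = 0.293), and -0.15 without sh-Vector replicate 1. It passed under array weights only (adjusted p = 0.0248, up to 0.615 over the 15 alternatives).

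FOSL1 encodes FRA-1, the FOS protein most often linked to invasive carcinoma cells and to collagenase transcription. Its log2 signals were 6.56, 6.52 and 6.40 in shSND1 cells, against 6.68, 6.59 and 6.58 in sh-Vector cells. The groups did not overlap, but the highest shSND1 array and the lowest sh-Vector array nearly met. The change was -0.12 (SE 0.06, 95% interval -0.27 to 0.02, limma adjusted p = 0.496), and the interval reached down to a signal ratio of 0.83.

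FOS, the prototype of the immediate early genes, had log2 signals of 4.93, 4.96 and 4.87 in shSND1 cells, against 4.98, 5.01 and 5.05 in sh-Vector cells. The groups did not overlap, yet their gap was small, and the change of -0.09 (SE 0.05, 95% interval -0.22 to 0.03) had a limma adjusted p of 0.544. FOSB, also an immediate early gene, gave 4.94, 4.85 and 4.77 in shSND1 cells, against 4.73, 4.78 and 4.84 in sh-Vector cells. Its groups overlapped, and the change was 0.07 (SE 0.06, 95% interval -0.08 to 0.22, limma adjusted p = 0.692). Both genes lay near the median signal of named genes, at the 52.7th percentile for FOS and the 49.7th for FOSB. Because signal per transcript varies between probe sets, such percentiles say nothing of which gene is more abundant.

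ATF3 is induced by many stresses and acts mostly as a repressor when paired with itself. Its log2 signals were 5.36, 5.44 and 5.39 in shSND1 cells, against 5.59, 5.44 and 5.50 in sh-Vector cells. Only the second replicates of the groups met, at 5.44, and the change was -0.11 (SE 0.06, 95% interval -0.25 to 0.03, limma adjusted p = 0.506). MAFF is a small MAF protein that lacks an activation domain and pairs mainly with NFE2-related factors. It had 5.63, 5.60 and 5.54 in shSND1 cells, against 5.63, 5.51 and 5.63 in sh-Vector cells. The group means were equal to 2 decimals (5.59), with a change of 0.00 (SE 0.06, 95% interval -0.14 to 0.14), whose sign depended on the setting.

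BATF3 encodes a partner of JUN proteins best known from dendritic cell development. Its log2 signals were 4.29, 4.25 and 4.13 in shSND1 cells, against 3.95, 3.99 and 4.19 in sh-Vector cells. The groups overlapped through sh-Vector replicate 3 and shSND1 replicate 3. The change was 0.18 (SE 0.08, 95% interval -0.0048 to 0.36, limma adjusted p = 0.424), opposite in sign to those of the JUN genes. The gene lay at the 37.5th percentile of named genes, where RMA signals are compressed, and it passed under array weights only (adjusted p = 0.0255).

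**Figure D1:**
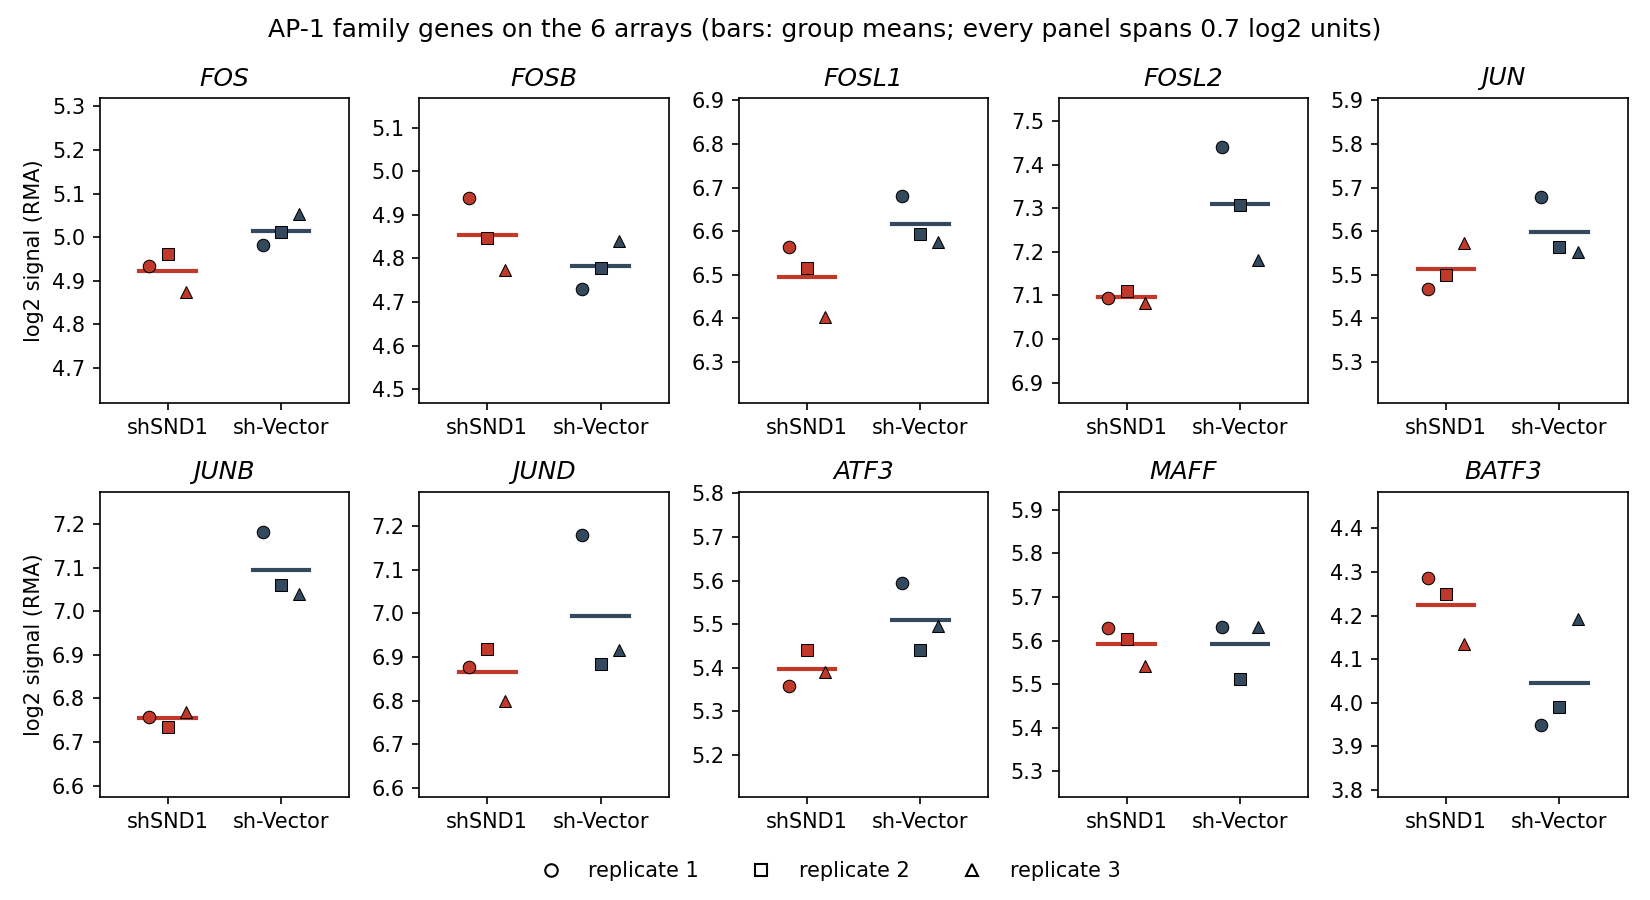
Log2 RMA signal (y axis) of the 10 AP-1 genes in shSND1 cells (left in each panel) and sh-Vector cells (right), with 1 symbol per array by replicate number and a bar at each group mean. The JUNB panel shows all 3 shSND1 arrays between 6.74 and 6.77 and all 3 sh-Vector arrays at 7.04 or above, while the groups meet or overlap for JUN, JUND, ATF3, MAFF, FOSB and BATF3.

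Only the 95% intervals of JUNB and FOSL2 left out 0 among the 10 genes, and the widest, that of JUND, spanned -0.33 to 0.07. The largest decrease inside any interval was that of JUNB, at a signal ratio of 0.72, and the largest increase was that of BATF3, at 1.29.

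**Figure D2:**
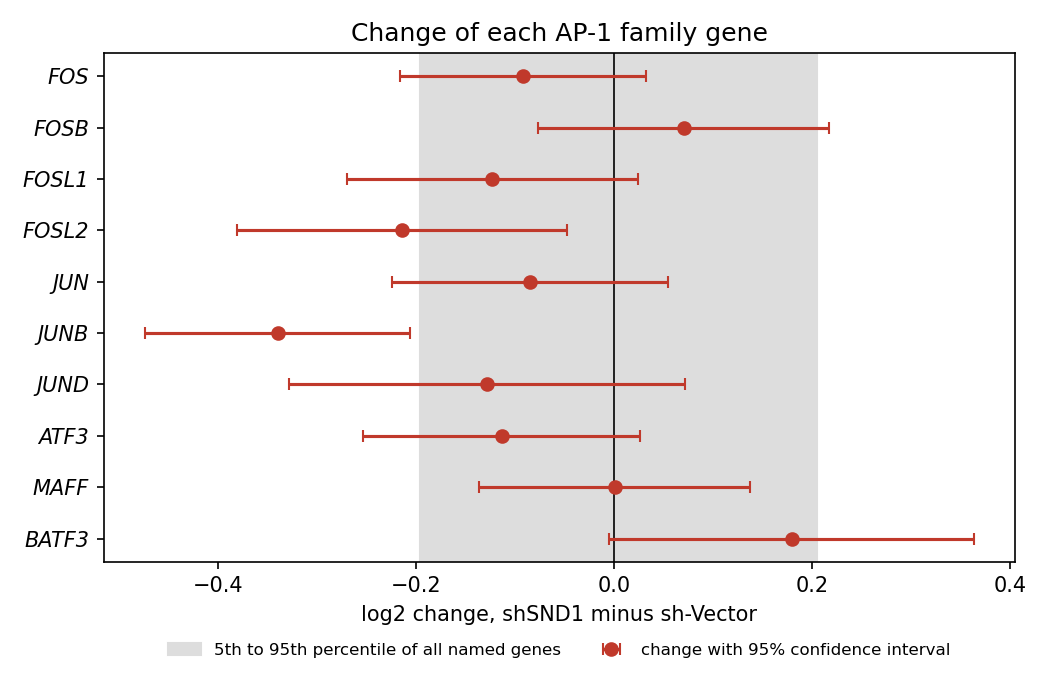
Log2 change (x axis, shSND1 minus sh-Vector) of each AP-1 gene with its 95% confidence interval, over a grey band from the 5th to the 95th percentile of all named genes (-0.20 to 0.20). JUNB at -0.34 and FOSL2 at -0.21 lie left of the band, and the other 8 genes lie inside it.

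As a family, 7 of the 10 changes were negative and 3 positive, with a median of -0.10. Over all named genes, 10578 of 22465 changes were negative, with a median of 0.01. Of the 11233 named genes above the median signal, where 8 of the 10 AP-1 genes lay, 6506 changes were negative, with a median of -0.02. The groups did not overlap for 4 genes (FOS, FOSL1, FOSL2 and JUNB), each lower in shSND1 cells. Such a separation was seen in 17.9% of all named genes, towards lower signals in 11.6% and towards higher ones in 6.33%. It was towards lower signals in 18.7% of the 11233 named genes above the median signal, where all 4 lay. Sorted by subfamily, the median change was -0.11 for the 4 FOS genes, -0.13 for the 3 JUN genes and 0.00 for ATF3, MAFF and BATF3. These medians describe the lists and were not tested.

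The arrays did not contribute evenly. With each gene centred on its own mean, the median over the 10 genes was -0.04, -0.01 and -0.08 in shSND1 cells, against 0.12, -0.0019 and 0.03 in sh-Vector cells. The array that stood apart was sh-Vector replicate 1, and over the JUN genes it stood at 0.25. Leaving it out brought the family's median change to -0.06, and leaving out any other array gave -0.12 to -0.09.

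**Figure D3:**
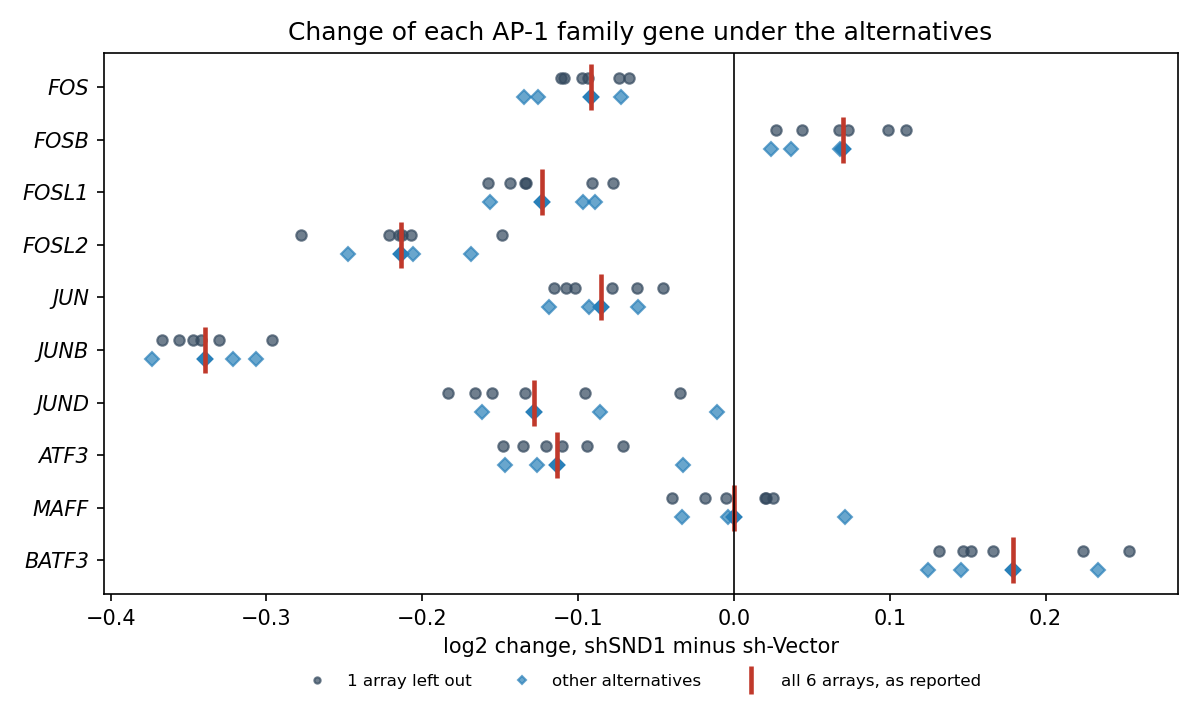
Log2 change (x axis, shSND1 minus sh-Vector) of each AP-1 gene with all 6 arrays (red bars), with 1 array left out (grey circles) and under the other alternatives (blue diamonds). JUNB stays between -0.37 and -0.30, JUND moves between -0.18 and -0.01, and MAFF lies on both sides of 0.

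By likeness over the 6 arrays, the genes closest to JUNB were ZNF703, KIF3B and P2RY2, which encode a zinc finger protein, a kinesin motor subunit and a purinergic receptor. After centring each gene, their root mean square differences from JUNB were 0.017, 0.021 and 0.022 log2 units among 11232 genes above the median signal. Because these 3 were picked for values close to those of JUNB, their limma adjusted p of 0.0928, 0.0775 and 0.0862 had to lie near that of JUNB. The genes closest to FOSL2 were ADCY9, ELOVL1 and SYVN1, at 0.015, 0.016 and 0.016. JUNB and FOSL2 were used because their signals varied most over the arrays, and 6 arrays leave many genes of similar profile.

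Promoter sequence is shown because AP-1 proteins bind these motifs and several AP-1 genes are known to be regulated by AP-1 or ATF dimers. RefSeq promoter windows (GRCh38.p14, 250 bases before to 50 after an annotated start) were at hand for 8 of the 10 genes, with 2 windows each for ATF3 and MAFF. The TRE was searched as TGANTCA with any base in the middle, a loose pattern that reads the same on both strands. The CRE-type motif was searched as TGACNTCA on both strands. The share of all 35116 windows that held them was 7.71% for TGANTCA and 7.72% for TGACNTCA. Of the AP-1 genes, FOSL2 had a TGANTCA match, and JUN, ATF3, JUND and MAFF each had a TGACNTCA match, none overlapping another. The full CRE, TGACGTCA, stood in JUND and MAFF and in 1.85% of all windows. Each stretch runs 5′ to 3′ on the gene's strand, with the match in capitals.
JUN: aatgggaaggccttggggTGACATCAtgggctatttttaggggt
ATF3: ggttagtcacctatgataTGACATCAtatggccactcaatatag
JUND: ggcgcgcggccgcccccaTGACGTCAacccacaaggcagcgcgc
MAFF: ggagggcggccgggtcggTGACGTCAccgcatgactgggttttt
FOSL2: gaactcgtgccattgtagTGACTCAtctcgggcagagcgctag

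The JUN match began 67 bases before the start (chr1:58784089-58784132, minus strand), and JUN carries the same 8 bases as ATF3, whose match began 123 bases before the first of its starts (chr1:212565266-212565309, plus strand). The JUND match began at -200 (chr19:18281797-18281840, minus strand) and the MAFF match at -54 from the first of its starts (chr22:38201922-38201965, plus strand). The FOSL2 match lay just inside the transcript, 5 bases from its start (chr2:28392844-28392886, plus strand). The 5 genes with a match had changes from -0.21 to 0.00, and the 3 with no match in any window, JUNB, FOS and FOSB, had -0.34, -0.09 and 0.07.

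The window of JUNB, the gene with the largest difference, is given whole (chr19:12791236-12791535, plus strand). It held neither motif, which says only that these letters are not in this window. Its capitals mark TATAAA, the core of a TATA box, 31 bases before the start, found on the gene's strand in 7.33% of all windows.
JUNB: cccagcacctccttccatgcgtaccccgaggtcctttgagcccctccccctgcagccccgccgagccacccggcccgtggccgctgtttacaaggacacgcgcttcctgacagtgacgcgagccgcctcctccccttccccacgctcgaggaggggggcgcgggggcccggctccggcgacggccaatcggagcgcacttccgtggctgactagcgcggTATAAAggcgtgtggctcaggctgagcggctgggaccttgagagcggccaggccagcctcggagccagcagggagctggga

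**Figure D4:**
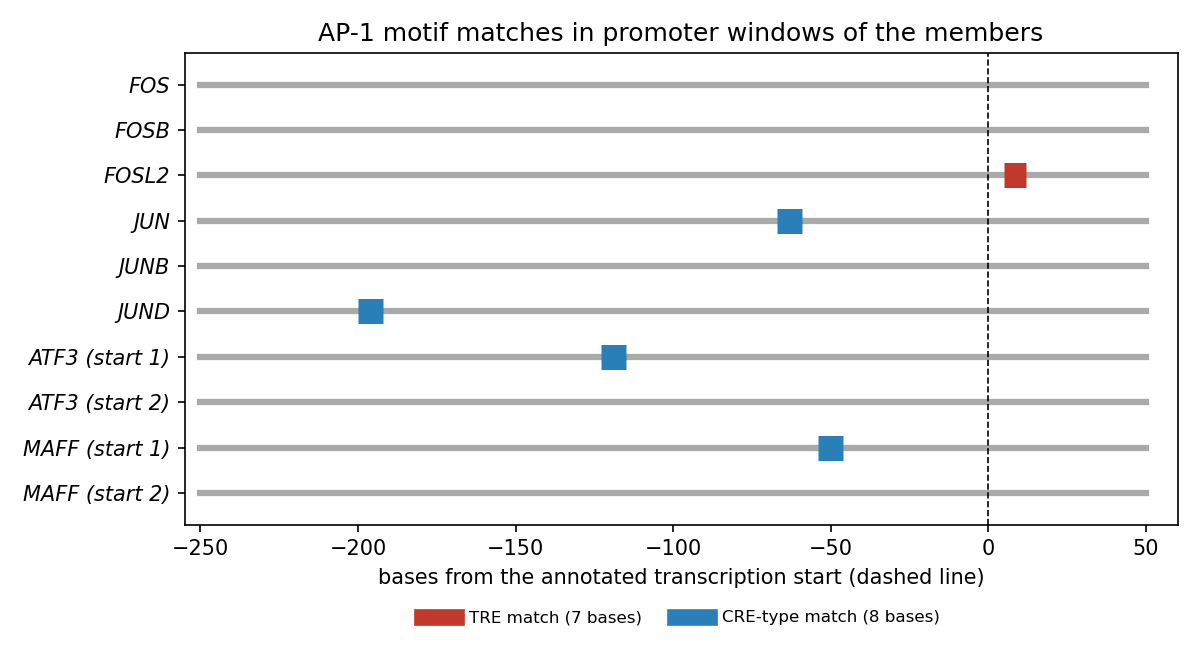
Position of TRE (red) and CRE-type (blue) matches in the promoter windows of 8 AP-1 genes, in bases from the annotated start (x axis), with 1 grey line per window. The JUN and MAFF matches lie within 67 bases before the start, and no match lies in the windows of FOS, FOSB and JUNB.

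The genes that act with AP-1 were described from lists chosen with earlier results of these data known. Of 10 other dimer partners measured, none passed, with a median change of 0.06. ATF2, a CRE-binding partner of JUN, had -0.01 (SE 0.07) and its relative ATF7 had -0.16 (SE 0.06, limma adjusted p = 0.379). The 18 measured genes of MAP kinase input and ternary complex factors, which switch on FOS and JUN, had a median change of -0.03, and none passed. The kinases MAP2K1 and MAP2K2, which activate ERK, had -0.01 (SE 0.06) and -0.09 (SE 0.06). MAP3K5, a stress-activated kinase upstream of JNK named after its value was seen, had -0.44 (SE 0.07, limma adjusted p = 0.0784).

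None of 10 MAP kinase phosphatases passed (median change -0.03). These enzymes are induced by the kinases they switch off. DUSP6, specific for ERK, had -0.15 (SE 0.08) and DUSP4 had -0.18 (SE 0.08). Of 22 other immediate early genes measured, none passed, 6 were lower and 0 higher at an unadjusted limma p under 0.05, and the median change was -0.02. Those 6 all lay above the median signal, where 11.8% of named genes were lower at that level, beside 7.34% lower and 4.85% higher over all named genes. IER3 had -0.27 (SE 0.10, limma adjusted p = 0.344) and the zinc finger factor KLF6 had -0.24 (SE 0.07, limma adjusted p = 0.22).

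Of 33 measured AP-1 target genes, 2 fell and 0 rose, with a median change of -0.03. Besides MMP1, the gene that fell was ITGA2, the collagen-binding integrin subunit alpha 2, with log2 signals of 7.69, 7.79 and 7.84 in shSND1 cells, against 8.58, 8.56 and 8.48 in sh-Vector cells (-0.77, SE 0.06, limma adjusted p = 0.0116). Both were known to fall when the list was made, so the count is not support for the list. ITGA2 did not pass without sh-Vector replicate 1 or 2 or without any of the shSND1 replicates (limma adjusted p = 0.0663 to 0.123), nor with the replicate block (0.133), the floor (0.0867) or all clusters tested (0.0642). MMP1 did not pass without shSND1 replicate 1 (limma adjusted p = 0.0678) or with the floor (0.078). MMP3 and MMP13, a stromelysin and a collagenase gene named after their values were seen, lay at or below the 21.7th percentile and had changes of -0.07 and 0.08. CCND1, the cyclin of early G1 phase, also named after its value was seen, had 0.15 (SE 0.06).

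**Figure D5:**
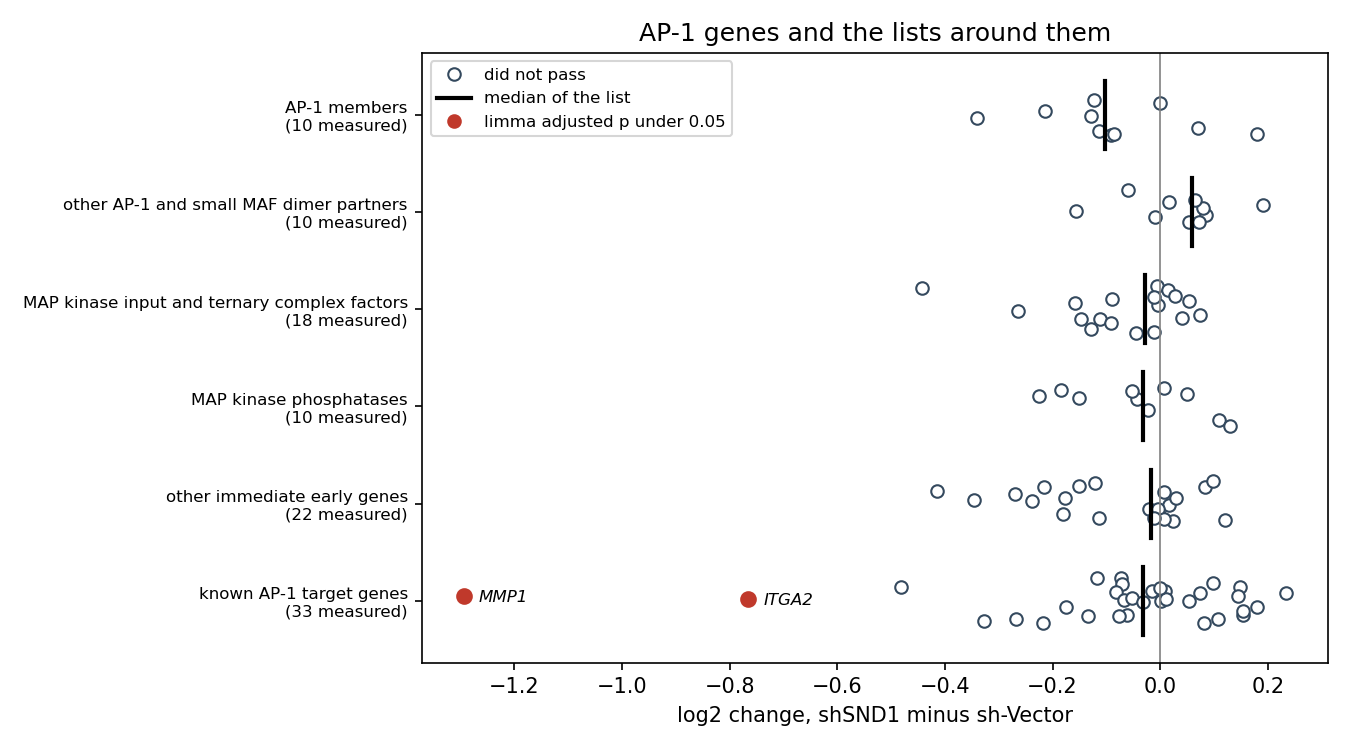
Log2 change (x axis, shSND1 minus sh-Vector) of every measured gene of the AP-1 list and of the 5 lists around it, with a black bar at each list's median and filled circles for genes at a limma adjusted p under 0.05. MMP1 (-1.29) and ITGA2 (-0.77) are the filled points, and the list medians lie between -0.10 and 0.06.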

How the data were processed

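The deposited values are log2 signals made by the authors with RMA (background correction, quantile normalization and probe summarisation), per the submitters' processing notes, with version and settings not given in the sources used here. Dim signals are compressed by RMA, which understates their changes, and no detection calls were given. Of 67528 transcript clusters, 23781 had 1 symbol in GEO's platform annotation, and the cluster with the highest mean stood for each of 22465 genes. The SND1 cluster carried 2 symbols and was taken from a fit over all clusters.

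Each comparison was shSND1 minus sh-Vector, fitted by limma 3.58.1 (lmFit, eBayes; R 4.3.3) over all named genes, with group as the only term and Benjamini-Hochberg adjustment. SE and intervals are limma's. Separate cultures are not stated in the labels. The p-values therefore reflect the spread of these arrays, which may be technical, and 3 arrays per group limit the precision. Members, lists, tests and the naming rule were chosen with earlier results of these data known. The rule named the 10 AP-1 genes, MMP1, SND1 and UCA1 (-0.57, limma adjusted p = 0.0831), and from each list up to 4 genes past the threshold or the 2 brightest. Defining cell markers were added, and others are said to be named after their values were seen. Alternatives were the replicate block, a filter on dim genes, 2 renewed scalings, a floor, a variance trend, array weights, the median row of a gene, all clusters tested and leaving out each array. On simulated data of 22465 genes with independent noise per gene, this comparison recovered 87% of 1.5-fold and 99% of 2-fold changes with 7 false calls. The changed genes all lay above the median signal, and differences as small as those of the AP-1 genes were not simulated. Differences shared by many genes of an array were not simulated either, so these shares cannot be carried over to the real arrays.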

Additional observations from a re-analysis of the deposited data

How the results depend on the processing

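The direction of 9 of the 10 AP-1 changes was the same under every alternative that gave a value, the exception being MAFF. MAFF had -0.0040 with renewed quantile normalization, -0.033 with median centring, -0.02 without shSND1 replicate 1, -0.0054 without shSND1 replicate 2 and -0.040 without sh-Vector replicate 2, and lay between -0.040 and 0.025 with 1 array left out. BATF3 has no value without the dimmest 40% of features, which drops it. The number of AP-1 genes past the threshold was 1 without the dimmest features, 1 with a variance trend and 3 with array weights, and 0 with any 1 array left out. The family's median change was -0.047 with array weights and -0.12 to -0.06 with 1 array left out. The number of genes of the related lists past the threshold, 2 as reported, was 1 with the replicate block, 6 without the dimmest features, 0 with the floor, 19 with array weights, 1 with all clusters tested and 0 to 2 with 1 array left out. Of all named genes, 38 passed as reported, 1 with the replicate block, 271 without the dimmest features, 61 with renewed quantile normalization, 15 with median centring, 0 with the floor (limma), 133 with a variance trend, 3212 with array weights, 3 with all clusters tested and 0 to 35 with 1 array left out. The estimation of array weights stopped before its tolerance, with weights from 0.449 to 7.77. The cause of these moves was not tested. The labels do not say whether same-numbered arrays were processed together. The deviations of such arrays from their group means correlated at -0.41, 0.08 and -0.52. With 3 arrays per group, these values cannot settle whether the arrays were paired.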

Other observations

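The following genes were named after their values were seen. The first pair are immediate early genes. ZFP36, which encodes an RNA-binding protein that destabilises AU-rich messenger RNAs, had log2 signals of 6.93, 6.97 and 7.06 in shSND1 cells, against 7.58, 7.31 and 7.30 in sh-Vector cells (-0.41, SE 0.09, limma adjusted p = 0.127). CCN1, a matricellular protein gene, had 6.80, 6.89 and 6.92 in shSND1 cells, against 7.31, 7.20 and 7.12 in sh-Vector cells (-0.35, SE 0.07, limma adjusted p = 0.11). For both genes the groups did not overlap, and neither passed. Both lay above the median signal, where such a separation towards lower signals was seen in 18.7% of named genes. EGR1 and MYC, also immediate early genes, had -0.22 (SE 0.07) and 0.03 (SE 0.06).

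Among AP-1 targets with a TGANTCA match in the promoter window, MMP10 (stromelysin 2) had 3.10, 3.19 and 2.89 in shSND1 cells, against 3.71, 3.51 and 3.42 in sh-Vector cells (-0.48, SE 0.10, limma adjusted p = 0.128). MMP10 lay at percentile 26.3 of named genes, where RMA signals are compressed. PLAUR, the urokinase receptor gene, had 6.75, 6.73 and 6.72 in shSND1 cells, against 7.31, 6.97 and 6.90 in sh-Vector cells (-0.33, SE 0.10, limma adjusted p = 0.26). Their matches began at -67 and -186 from the start (RefSeq, GRCh38.p14, chr11:102780671-102780713 and chr19:43670331-43670373, both minus strand), shown with the match in capitals.
MMP10: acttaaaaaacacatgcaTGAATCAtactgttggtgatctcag
PLAUR: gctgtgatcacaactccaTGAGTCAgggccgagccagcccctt

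Of 22 measured AP-1 targets with a window, the 9 with TGANTCA, MMP10 and PLAUR among them, had a median change of 0.11, and 4 of the 9 changes were negative. The 13 without it had a median of -0.05, with 9 negative, and MMP1 is in neither set. Over 15247 named genes with a window, the 1280 with TGANTCA and the 13967 without it both had a median change of 0.00, and their groups did not overlap in 17.7% and 17.9%. These are descriptions of the deposited signals and were not tested.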
